A study of Rattus norvegicus with 5 samples.

Results

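Motile cilia are whip-like cell projections built on a ring of microtubule doublets, and those of the brain belong to the ependymal cells that line the ventricles and to the choroid plexus. Dynein arms on the doublets pull neighbouring doublets past each other, radial spokes and the central apparatus set the rhythm, and the nexin-dynein link holds the doublets together. The transcription factors Foxj1 and Rfx3 switch on many of these genes, and in the ependyma the beating moves cerebrospinal fluid along the ventricle wall. Inherited loss of such genes is a known cause of hydrocephalus, the enlargement of the ventricles by fluid, in rodents. The data here come from rats made hydrocephalic by kaolin, a clay that obstructs the flow of cerebrospinal fluid.

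Of 36 genes listed for the motile cilium of ependymal cells, 26 had at least 1 probe on the array, 37 probes in all among 41012 that were not controls. The rule that picks the probes uses names and no measured value, although the list was drawn up with earlier results of these data known. A probe belonged to a gene when its deposited gene name, or the current or older rat symbol for it, was on the list. Of the 26 genes, 22 were tested, because at least 1 of their probes was well above background in either dye on at least 3 of 5 arrays; 12053 genes of any kind met that rule. Another 4 members, Ak7, Dnah5, Dnah7 and Spag16, had probes that were not well above background on enough arrays to be tested. No probe was matched by name to the other 10 members, which were Rfx2, Spag6, Spag17, Pifo, Hydin, Dnal1, Ccdc40, Tmem212, Stk33 and Ropn1l. All 4 listed genes of the central apparatus are therefore outside the comparison.

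Rat pups received kaolin or saline on postnatal day 1 and parietal cortex was taken on postnatal day 22, which was 21 days after the injection. Each of 5 two-colour arrays carried 1 kaolin sample labelled with Cy3 and 1 saline sample labelled with Cy5. The site of injection, the strain and the sex are not given in the sources used here, and saline is the only control. The dyes were never exchanged, so a dye effect and the effect of kaolin cannot be told apart. The labels do not say whether a sample was 1 animal, so the spread between arrays may be partly technical. In pieces of whole cortex, a change in the number of ciliated cells and a change in RNA per cell cannot be told apart either.

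The array of replicate 2 stood apart from the rest. Over the tested probes its log2 ratios of kaolin over saline correlated with those of replicate 1 at -0.37 and with the other arrays at -0.17 to -0.06, whereas replicates 3 and 4 correlated at 0.83. The labels state the same dyes for every array, so its direction was kept, and results are given with and without it. Between 27957 and 29386 probes per array were well above background in the kaolin dye and between 27376 and 28935 in the saline dye, and no spot was saturated. Of 6 genes of cortical excitatory neurons, 5 were tested and all 5 were well above background in both dyes on every array.

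The promoters of 5 members hold the letters of the RFX core, of a forkhead motif or, in Mlf1 only, of both. They were chosen for printing after their log2 ratios were seen: all 5 had means above the median of the members. Each window runs from 250 bases before to 50 after the annotated RefSeq start in the build GRCr8, in the direction of the gene. Capitals mark GTTGCC, the core of the RFX motif, or GTAAACA, a forkhead motif, on either strand. The windows are chr10:100258772-100259071 (+) for Dnai2, chr10:57479072-57479371 (-) for Tekt1, chr11:81235080-81235379 (+) for Iqcg, chr2:153958341-153958640 (+) for Mlf1 and chr5:142611921-142612220 (-) for Dnali1.

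Dnai2: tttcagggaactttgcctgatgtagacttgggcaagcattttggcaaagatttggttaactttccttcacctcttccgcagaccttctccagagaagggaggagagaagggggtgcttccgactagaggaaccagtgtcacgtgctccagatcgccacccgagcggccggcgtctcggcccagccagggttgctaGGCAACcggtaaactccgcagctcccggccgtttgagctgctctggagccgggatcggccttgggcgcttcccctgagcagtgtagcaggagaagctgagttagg

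Tekt1: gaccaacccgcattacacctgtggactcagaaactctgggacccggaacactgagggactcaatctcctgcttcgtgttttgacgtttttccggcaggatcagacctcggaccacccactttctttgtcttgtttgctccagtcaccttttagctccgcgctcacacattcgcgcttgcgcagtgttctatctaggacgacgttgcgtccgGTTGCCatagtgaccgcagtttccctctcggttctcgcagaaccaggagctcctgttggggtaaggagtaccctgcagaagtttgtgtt

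Iqcg: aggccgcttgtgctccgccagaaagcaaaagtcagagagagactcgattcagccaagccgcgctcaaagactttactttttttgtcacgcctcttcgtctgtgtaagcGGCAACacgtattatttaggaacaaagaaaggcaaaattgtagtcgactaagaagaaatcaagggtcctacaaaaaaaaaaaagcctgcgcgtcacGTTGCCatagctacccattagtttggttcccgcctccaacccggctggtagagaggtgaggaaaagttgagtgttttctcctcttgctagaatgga

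Mlf1: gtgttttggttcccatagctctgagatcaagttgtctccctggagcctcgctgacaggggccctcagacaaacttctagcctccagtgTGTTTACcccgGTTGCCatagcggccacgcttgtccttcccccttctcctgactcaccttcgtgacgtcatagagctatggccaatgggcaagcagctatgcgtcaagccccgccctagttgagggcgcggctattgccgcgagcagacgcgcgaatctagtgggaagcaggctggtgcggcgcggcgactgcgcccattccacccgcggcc

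Dnali1: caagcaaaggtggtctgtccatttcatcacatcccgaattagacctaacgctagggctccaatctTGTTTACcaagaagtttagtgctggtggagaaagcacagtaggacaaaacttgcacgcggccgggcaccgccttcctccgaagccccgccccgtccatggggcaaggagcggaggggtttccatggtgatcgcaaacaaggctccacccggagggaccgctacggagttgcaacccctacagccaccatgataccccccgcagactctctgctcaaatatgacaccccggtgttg

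The RFX core began at base -55 from the start in Dnai2, at -39 in Tekt1, at -142 and -46 in Iqcg, and at -151 in Mlf1. The forkhead letters began at -185 in Dnali1 and at -162 in Mlf1, where they lie just before the RFX core without overlap. RefSeq windows were found for 30 of the 36 members, 37 windows in all, with none used here for Foxj1. GTTGCC was present in 14 of the 37 windows (37.8%), belonging to 13 genes, against 12.2% of 33469 windows of all genes. GTAAACA was present in 3 of the 37 (8.11%), those of Dnali1, Mlf1 and Tekt3, against 3.78%. Several members with ratios near 0, such as Ift88 and Rfx3, also held the RFX core. Rsph9 and Dnah1, the latter by its brighter probe, had means above the median of the members, but their windows held neither motif. A link between motif and ratio was not tested. A match describes the letters only and is not evidence that a factor binds there.

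Most tested motile cilium genes had a higher mean in the kaolin samples, but none passed the test across all probes when all 5 arrays counted equally. The mean log2 ratio was above 0 for 17 of the 22 tested members (77.3%), against 56.5% of all tested genes. The median of the members' means was 0.21, against 0.03 over all tested genes. After Benjamini-Hochberg adjustment in limma over 29118 probes, 0 members and 0% of all probes had an adjusted p under 0.05 in this unweighted fit. At an unadjusted p under 0.05, 5280 probes were counted, and 6 of the 22 members were higher in kaolin (27.3%, against 12.3% of all genes) and 0 were lower (against 6.61%). The 6 were Foxj1, Dnali1, Dnai2, Tekt1, Tekt3 and Rsph4a. In all these counts the brightest tested probe stood for a gene. A dimmer Dnah1 probe was lower in kaolin, with a mean log2 ratio of -0.45 and an unadjusted p of 0.0037 in limma. Dnah1 is among the 17 through its brighter probe only.

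The sign of the members depended on the array. Their median log2 ratio was 0.33 on replicate 1, 0.26 on replicate 3, 0.43 on replicate 4 and 0.21 on replicate 5, but -0.13 on replicate 2. On each array other than replicate 2, 17 members were positive, of 22 measured on 3 of them and 21 on replicate 5. On replicate 2 only 6 of 22 were positive. The median over all tested genes lay between 0.00 and 0.04 on every array. Thus 11 members were negative on replicate 2 and positive on the other 4 arrays (50% of the tested members), against 14.7% of all genes. Dnah1 is among the 11 through its brighter probe only. Only 2 members, Dnai2 and Tekt3, were positive on every array (9.09%, against 7.95%), and 1, Rfx3, was negative on every array that measured it (against 5.26%). Among all genes too, being negative on replicate 2 only (14.7%) was commoner than being positive on every array (7.95%). The reversal was thus not particular to the members.

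Without replicate 2, 4 members passed the test. They were Foxj1, Dnali1, Dnai2 and Tekt1, all higher in kaolin, against 3.33% of all genes called in that direction. Their adjusted p in limma was 0.0404, 0.0404, 0.0413 and 0.0408, and over the 14 alternative settings compared for each gene it ran up to 0.659. Of the 22 members, 18 then had a mean above 0, and the median of the means was 0.30. When the 5 arrays were kept but weighted by how well each followed the fit, 6 members passed, the same 4 with Tekt3 and Rsph4a, against 8.04% of all genes called in that direction. The weights came from the same ratios and were lowest for replicate 2, at 0.46, and highest for replicate 4, at 2.38. The weighted fit is therefore not independent of leaving replicate 2 out.

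**Figure D1:**
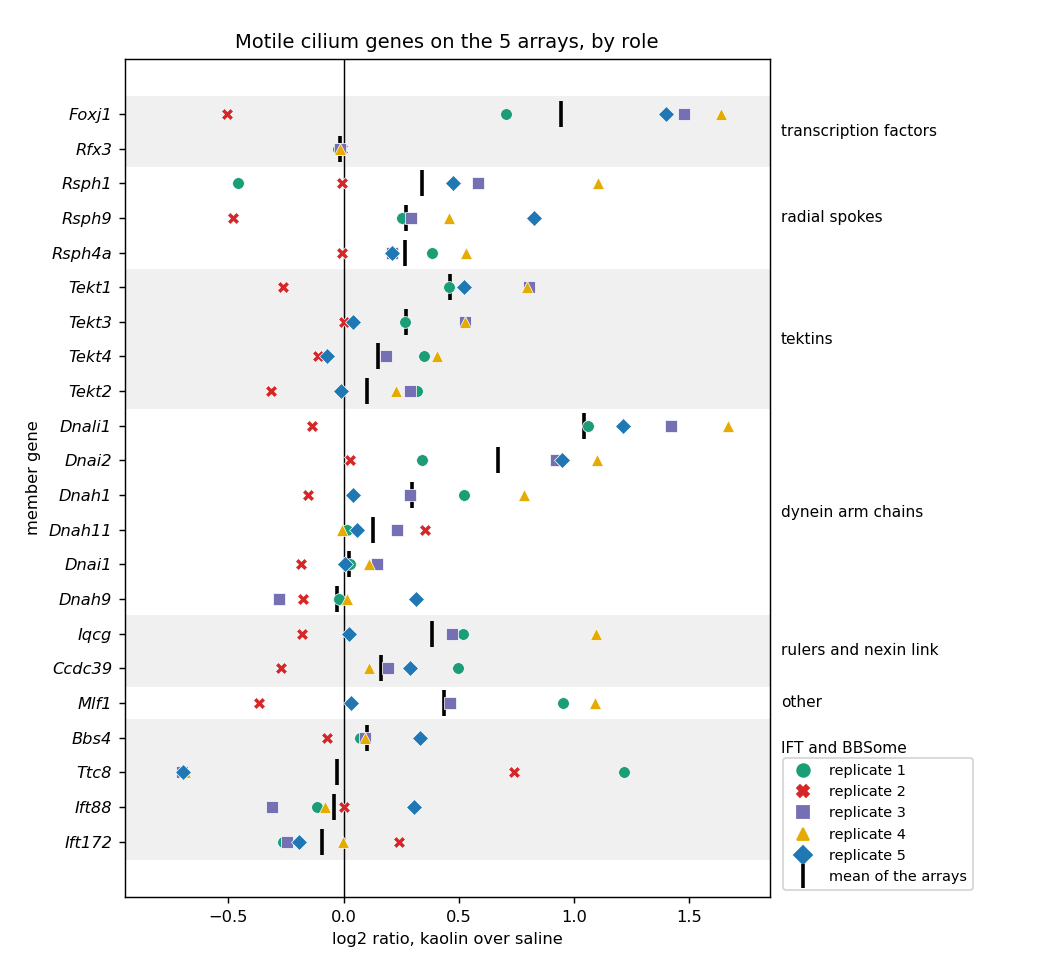
Log2 ratio of kaolin over saline (x axis) for the 22 tested member genes (y axis, grouped by role), 1 point per array and a black bar at the mean. The red crosses of replicate 2 lie at or left of 0 for 16 genes, whereas the other arrays lie right of 0 for most genes outside intraflagellar transport and the BBSome.

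Foxj1, the forkhead factor needed to make motile cilia, stood among the highest members. Its log2 ratio was 0.71, -0.51, 1.48, 1.64 and 1.40 on replicates 1 to 5, with a mean of 0.94 ± 0.89 (SD, n = 5) and an adjusted p of 0.243. It was high on replicates 3, 4 and 5, lower on replicate 1 and reversed on replicate 2. Without replicate 2 the mean was 1.31 ± 0.41 (SD, n = 4). In normalised log2 intensity the kaolin samples measured 10.02, 8.81, 11.30, 10.92 and 10.80, and the saline samples 9.32, 9.32, 9.83, 9.28 and 9.40. The saline samples thus lay close together, every kaolin sample but that of replicate 2 was above all 5 saline samples, and the kaolin sample of replicate 2 was below all of them. Rfx3, which works beside Foxj1 in ciliogenesis, was measured on 4 arrays and its log2 ratios ran only from -0.02 to -0.01, with a mean of -0.02 ± 0.01 (SD, n = 4). Its levels of 6.48 to 6.89 in normalised log2 intensity were close to the lowest signals above background, 6.06 to 6.27. The small spread is therefore not evidence that Rfx3 was unchanged.

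Among the tested members of the dynein arms Dnali1 and Dnai2 had the largest mean ratios, and Dnai1 and the heavy chains smaller ones. Dnali1, a light intermediate chain of the inner arm, had the highest mean of the members. Its brighter probe gave log2 ratios of 1.06, -0.14, 1.42, 1.67 and 1.22, a mean of 1.05 ± 0.70 (SD, n = 5) and an adjusted p of 0.243. The kaolin levels were 8.98, 7.89, 9.73, 9.82 and 9.21 in normalised log2 intensity, and the saline levels 7.92, 8.03, 8.31, 8.15 and 8.0. All kaolin samples except that of replicate 2 exceeded every saline sample, and without that array the mean ratio was 1.34 ± 0.26 (SD, n = 4). A dimmer Dnali1 probe followed the same order, with log2 ratios of 0.69, -0.18, 1.08, 1.21 and 0.61 and a mean of 0.68 ± 0.54 (SD, n = 5). In the build rn4 the brighter probe lies at chr5:144399315-144399374 and the dimmer at chr5:144402863-144402922, both on the minus strand.

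Dnai2, an intermediate chain of the outer arm, was positive on every array. Its log2 ratios were 0.34, 0.03, 0.92, 1.1 and 0.95, with a mean of 0.67 ± 0.46 (SD, n = 5), an adjusted p of 0.243, and 0.83 ± 0.33 (SD, n = 4) without replicate 2. The kaolin levels were 7.38, 6.88, 7.71, 7.94 and 7.69 in normalised log2 intensity and the saline levels 7.04, 6.86, 6.79, 6.84 and 6.74. The kaolin sample of replicate 2 fell inside the saline range, so the groups overlapped through that sample alone. Dnai1, its partner chain in the outer arm, had log2 ratios between -0.18 and 0.15 and a mean of 0.02 ± 0.13 (SD, n = 5). The partners therefore differed in size of ratio on the same arrays, but this difference was not tested.

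Among the heavy chains, which carry the motor domain, Dnah11 averaged 0.13 ± 0.16 (SD, n = 5) in log2 ratio and had its highest ratio, 0.35, on replicate 2, where most members had their lowest. Its saline signal was well above background on only 4 of the 5 arrays. Leaving out replicate 2, its mean was 0.07 ± 0.11 (SD, n = 4). The brighter Dnah9 probe gave log2 ratios of -0.02, -0.18, -0.28, 0.02 and 0.32 and a mean of -0.03 ± 0.23 (SD, n = 5), and a dimmer probe gave 0.07, 0.27, -0.18, 0.08 and 0.01, with a mean of 0.05 ± 0.16 (SD, n = 5). Both were near 0, and their signs differed. Leaving out replicate 2, the brighter probe averaged 0.01 ± 0.24 (SD, n = 4).

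The probes of Dnah1, an inner arm heavy chain, disagreed. The brighter gave log2 ratios of 0.52, -0.16, 0.29, 0.78 and 0.04, a mean of 0.30 ± 0.37 (SD, n = 5) and an adjusted p of 0.304. The dimmer gave -0.35, -0.20, -0.50, -0.86 and -0.32, a mean of -0.45 ± 0.25 (SD, n = 5) and an adjusted p of 0.243. It was negative on all 5 arrays and, like the brighter probe, farthest from 0 on replicate 4. Each of its kaolin levels, 6.52 to 6.88 in normalised log2 intensity, was below each of its saline levels, 6.92 to 7.38. In the build rn4 the brighter probe spans chr16:6693880-6694420 and the dimmer chr16:6724495-6724554, both on the minus strand. Without replicate 2 the means were 0.41 and -0.51, and with the arrays weighted the dimmer probe passed the test with an adjusted p of 0.0423. No direction is given for Dnah1 as a gene.

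**Figure D2:**
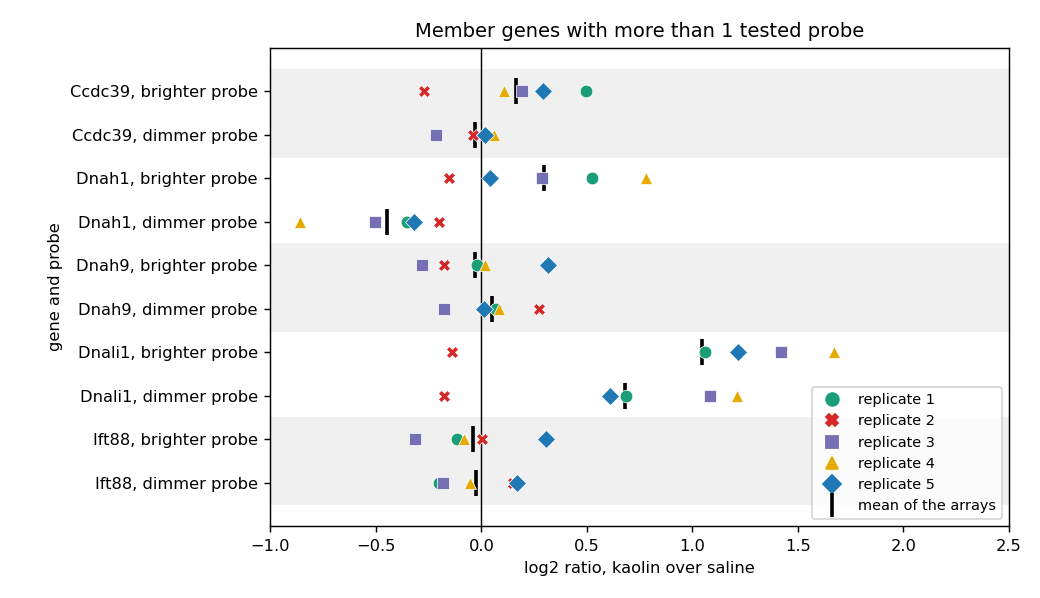
Log2 ratio of kaolin over saline (x axis) for each tested probe of the 5 member genes with more than 1 tested probe (y axis), 1 point per array and a black bar at the mean. The probes of Dnali1 both lie right of 0 except on replicate 2, whereas those of Dnah1 lie on opposite sides of 0 on every array but replicate 2, where both lie left.

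The tektins, filament proteins that stiffen the doublets, were all on the positive side in the mean. Tekt1 had log2 ratios of 0.46, -0.26, 0.80, 0.80 and 0.52, a mean of 0.46 ± 0.43 (SD, n = 5) and an adjusted p of 0.243. Its kaolin levels were 7.57, 7.03, 7.97, 7.97 and 7.40 in normalised log2 intensity against saline levels of 7.11, 7.29, 7.17, 7.18 and 6.88. The 4 kaolin samples outside replicate 2 exceeded all saline samples, and the mean ratio without that array was 0.65 ± 0.18 (SD, n = 4). Tekt3 had log2 ratios of 0.27, 0.00, 0.53, 0.53 and 0.04, a mean of 0.27 ± 0.25 (SD, n = 5) and an adjusted p of 0.254. Only replicates 1, 3 and 4 lay clearly above 0 for that gene. Tekt4 and Tekt2 had means of 0.15 ± 0.24 and 0.10 ± 0.27 (SD, n = 5), each negative on replicates 2 and 5. Without replicate 2 the means were 0.34 for Tekt3, 0.22 for Tekt4 and 0.21 for Tekt2.

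The radial spoke heads link the doublets to the central apparatus, and their 3 tested genes had nearly equal means with unlike patterns. Rsph4a had log2 ratios of 0.38, -0.01, 0.21, 0.53 and 0.21, with a mean of 0.27 ± 0.20 (SD, n = 5) and an adjusted p of 0.243. Its kaolin levels, 6.52 to 7.61 in normalised log2 intensity, overlapped the saline levels of 6.48 to 7.08, and the lowest pairs were on replicates 2 and 5. Rsph9 had log2 ratios of 0.25, -0.48, 0.29, 0.46 and 0.83 and a mean of 0.27 ± 0.48 (SD, n = 5). Rsph1 had log2 ratios of -0.46, -0.01, 0.58, 1.11 and 0.48 and a mean of 0.34 ± 0.60 (SD, n = 5). Rsph1 was thus the radial spoke gene that was negative on replicate 1. Leaving out replicate 2, the means were 0.33 for Rsph4a, 0.46 for Rsph9 and 0.43 for Rsph1.

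Iqcg, a protein of the nexin-dynein link, had log2 ratios of 0.52, -0.18, 0.47, 1.1 and 0.02, a mean of 0.39 ± 0.50 (SD, n = 5) and an adjusted p of 0.297. Ccdc39, which with Ccdc40 forms the ruler that spaces the arms and spokes along the doublet, gave 0.50, -0.27, 0.19, 0.11 and 0.29 on its brighter probe, with a mean of 0.16 ± 0.28 (SD, n = 5). Its dimmer probe gave 0.02, -0.04, -0.22, 0.06 and 0.02 and averaged -0.03 ± 0.11 (SD, n = 5), so the signs of its probes differed. The probes span chr2:120149848-120151911 and chr2:120136832-120136891 in the build rn4. Mlf1, a gene of ciliated epithelia that was first described in leukaemia, had log2 ratios of 0.95, -0.37, 0.46, 1.09 and 0.03 and a mean of 0.43 ± 0.61 (SD, n = 5). Like Iqcg it was highest on replicate 4, near 0 on replicate 5 and negative on replicate 2. Leaving out replicate 2, the means were 0.53 for Iqcg, 0.27 for Ccdc39 and 0.63 for Mlf1.

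**Figure D3:**
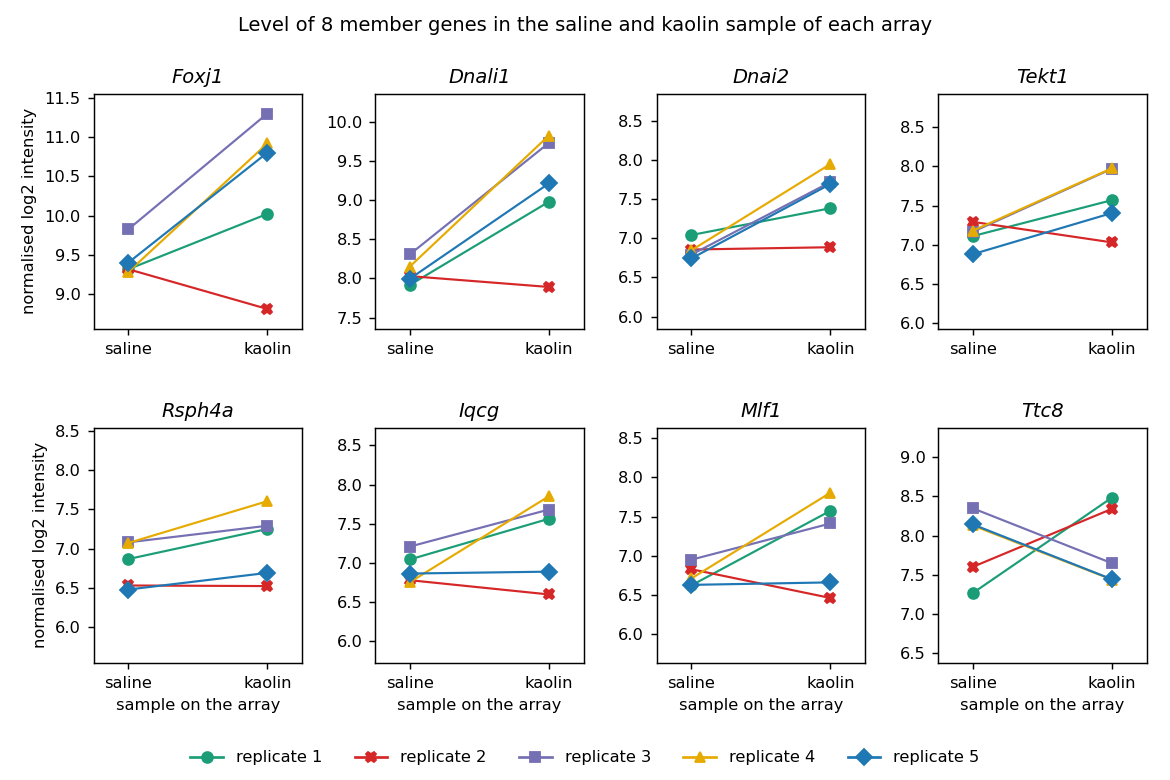
Normalised log2 intensity (y axis) of 8 member genes in the saline and the kaolin sample of each array (x axis), with a line joining the samples of 1 array. In Foxj1, Dnali1, Dnai2 and Tekt1 the saline samples lie close together while the kaolin samples fan out, with replicate 2 lowest; in Ttc8 the lines cross.

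For most members, as for most genes, levels differed more between the kaolin samples than between the saline samples. Kaolin was always in Cy3, so a wider spread of that dye and of the kaolin samples cannot be told apart. Of 21 members measured on all 5 arrays, 18 (85.7%) had a larger SD among kaolin than among saline levels, against 73.1% of 12050 genes. For Foxj1 the SD of normalised log2 intensity was 0.99 among kaolin and 0.23 among saline samples, and for Dnali1 it was 0.77 and 0.15. The kaolin sample of replicate 2 was the lowest of the kaolin samples for 11 members (52.4%), against 17.5% of genes. The saline sample of replicate 2 was the lowest of the saline samples for 4 members (19%), against 26.3%. For 5 members (23.8%), namely Foxj1, Rsph9, Dnali1, Tekt1 and Dnai2, all kaolin samples but that of replicate 2 were above every saline sample, against 5.29% of genes. With replicate 2 included, no member had every kaolin level above every saline level, against 2.09% of genes. These counts use the brightest probe of each gene. In the other direction, the dimmer Dnah1 probe had every kaolin level below every saline level.

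The member genes that also serve immotile cilia had means on both sides of 0. Intraflagellar transport carries cargo along every cilium, and the BBSome, of which Bbs4 and Ttc8 are subunits, moves membrane proteins in it. Among these 4 members the median of the means was -0.03, 1 mean was positive (25%, against 56.5% of all genes) and 3 were negative. Ift172, named Slb on the array, averaged -0.09 ± 0.21 (SD, n = 5) in log2 ratio and its single clearly positive value, 0.24, on replicate 2. Ift88 averaged -0.04 ± 0.22 on its brighter probe and -0.02 ± 0.18 on the dimmer (SD, n = 5), which was well above background on 4 arrays in kaolin and 3 in saline. Bbs4 had log2 ratios of 0.07, -0.07, 0.09, 0.09 and 0.33 and a mean of 0.10 ± 0.14 (SD, n = 5). All 4 genes stayed short of an unadjusted p under 0.05, and the difference between them and the axonemal members was not tested. Leaving out replicate 2, the median of the 4 means was -0.11.

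Ttc8 had the widest spread of the members. Its log2 ratios were 1.22, 0.74, -0.70, -0.69 and -0.70, with a mean of -0.03 ± 0.93 (SD, n = 5) and, without replicate 2, -0.22 ± 0.96 (SD, n = 4). In normalised log2 intensity the kaolin samples measured 8.48, 8.34, 7.65, 7.44 and 7.44, and the saline samples 7.27, 7.60, 8.35, 8.13 and 8.14. The levels fell into a low range of 7.27 to 7.65 and a high range of 8.13 to 8.48, and each array paired a low with a high sample. The kaolin sample was the high one on replicates 1 and 2 and the low one on the other 3 arrays. The mean near 0 therefore does not describe any single array.

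Wider lists of cilium genes outside the 36 differed in their share of positive means. Of 30 other genes for the dynein arms and their docking and assembly, 19 were tested, with a median of 0.16. Of these, 16 had a mean above 0 (84.2%, against 56.5% of all genes). By unadjusted p, 2 of them were under 0.05, both higher (10.5%, against 12.3% of all genes). They were the assembly factors Dnaaf4, averaging 0.21 ± 0.16 (SD, n = 5), and Dnaaf6. Dnaaf6 was not well above background on any array in saline and was so on 3 arrays in kaolin. It thus entered the test through kaolin alone, and its p is no support for a difference. With saline levels raised to at least the lowest saline signal above background, its mean was 1.13-fold higher in kaolin. This is not a strict bound, because the kaolin mean includes arrays on which kaolin was not well above background. The adjusted p of its measured ratio in limma was 0.259. The same holds for Dnah6, 1.14-fold higher with an adjusted p of 0.310, which is named here after its values were seen. Next by p was the assembly factor Dnaaf2, averaging 0.21 ± 0.22 (SD, n = 5). Larger means exist in this list, up to 0.74, in genes not named because their p was larger. The 3 with a negative mean, Cfap53, Txnrd3 and Spag1, lay between -0.09 and -0.02. Txnrd3 is a thioredoxin reductase and not a dynein arm gene, although the list counts it. Of 55 further doublet and ependyma-enriched axonemal genes, 25 were tested, and 20 had a mean above 0 (80%, against 56.5% of all genes). The median was 0.18, and the highest mean was 0.90, in a gene not named because its p was larger. In that list 4 were higher (16%, against 12.3% of all genes) and 1 lower (4%, against 6.61%) at an unadjusted p under 0.05.

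Morn5 led that list by p, with log2 ratios of 0.93, -0.10, 0.90, 0.88 and 0.48 and a mean of 0.62 ± 0.44 (SD, n = 5). Tppp3, a tubulin-binding protein, had 0.64, 0.08, 1.09, 0.86 and 0.19 and a mean of 0.57 ± 0.43 (SD, n = 5). Spa17 had a mean of 0.42 ± 0.39 (SD, n = 5). These genes had their lowest ratio on replicate 2, as most members did. On the negative side, Ttll6, a tubulin-modifying enzyme, had a mean of -0.18 ± 0.08 (SD, n = 5) and was negative on every array, although its kaolin signal was well above background on 4 arrays and its saline signal on 3, while Cfap141 and Ttll9 had means of -0.13 ± 0.26 and -0.15 ± 0.49 (SD, n = 5).

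The list for radial spokes, the central apparatus and the nexin link was split. Of 33 genes 17 were tested, 9 with a mean above 0 (52.9%, against 56.5% of all genes) and 8 below. At an unadjusted p under 0.05, 1 was higher (5.88%, against 12.3% of all genes) and 3 were lower (17.6%, against 6.61%). Lrrc23, a radial spoke protein, averaged 0.36 ± 0.37 in log2 ratio, Drc3, of the nexin-dynein link, 0.27 ± 0.34 and Rsph3, a spoke stalk protein, 0.15 ± 0.16 (SD, n = 5). In the other direction, Iqub had log2 ratios of -0.51, -0.03, -1.32, -1.13 and -0.02 and a mean of -0.60 ± 0.61 (SD, n = 5). Kif9, a kinesin of the central apparatus, had a mean of -0.29 ± 0.26 and Ccdc65, of the nexin-dynein link, -0.21 ± 0.08 (SD, n = 5). Ccdc65 was negative on all 5 arrays. Positive means were thus not general among axonemal genes.

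Of 14 other regulators of motile ciliogenesis only 5 were tested, with a median of 0.08. E2f5, which acts with the multicilin complex to start centriole amplification, was positive on every array and averaged 0.30 ± 0.17 (SD, n = 5) in log2 ratio, with an adjusted p of 0.243. Myb, well above background on 3 arrays in kaolin and 4 in saline, and Ulk4 had means of 0.22 ± 0.28 and 0.08 ± 0.03, and Ccno -0.11 ± 0.18 (SD, n = 5). Over these 4 motile cilium lists together, 66 of 131 genes were tested, and 49 had a mean above 0 (74.2%, against 56.5% of all genes). At an unadjusted p under 0.05, 8 were higher (12.1%, against 12.3%) and 4 lower (6.06%, against 6.61%), which is near the shares of all genes. Their median was 0.25 on replicate 1, -0.10 on replicate 2, 0.16 on replicate 3, 0.28 on replicate 4 and 0.10 on replicate 5. The sign of replicate 2 was thus opposite in genes that were not members.

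Lists for cilia in general stayed near 0. The intraflagellar transport list had 23 of 29 genes tested, 10 with a mean above 0 (43.5%, against 56.5% of all genes), and a median of -0.06. Its extremes by p were Dync2i2, Wdr35 and Dync2li1, with mean log2 ratios of 0.35 ± 0.31, 0.17 ± 0.09 and 0.29 ± 0.37, and Cluap1, Kif3a and Ift80, with -0.19 ± 0.15, -0.11 ± 0.10 and -0.11 ± 0.11 (SD, n = 5). The BBSome list had 10 of 12 tested, 4 above 0 (40%) and a median of -0.03. Its means ran from Mkks at -0.16 ± 0.25 to Bbs9 at 0.17 ± 0.24 (SD, n = 5). Bbs1 and Bbs12 had means of 0.10 and 0.06, and Bbs5 and Bbs7 of -0.16 and -0.09. The list for the primary cilium, the single sensory cilium of neurons and glia, had 20 of 30 tested, 10 above 0 (50%) and a median of 0.00. There Tmem216, Tmem231 and B9d1 had means of 0.32 ± 0.34, 0.13 ± 0.10 and 0.34 ± 0.51, and Sstr3, Cep83 and Cep290 of -0.33 ± 0.32, -0.41 ± 0.42 and -0.30 ± 0.35 (SD, n = 5). At an unadjusted p under 0.05, 8.7%, 0% and 5% of these 3 lists were higher, against 12.3% of all genes. Lower were 4.35%, 0% and 10%, against 6.61%. Without replicate 2 the medians were -0.07, -0.01 and 0.00 for these 3 lists, against 0.22 for the dynein list. They were 0.29 for the doublet list, 0.12 for the list of radial spokes, central apparatus and nexin link, and 0.08 for the regulators.

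**Figure D4:**
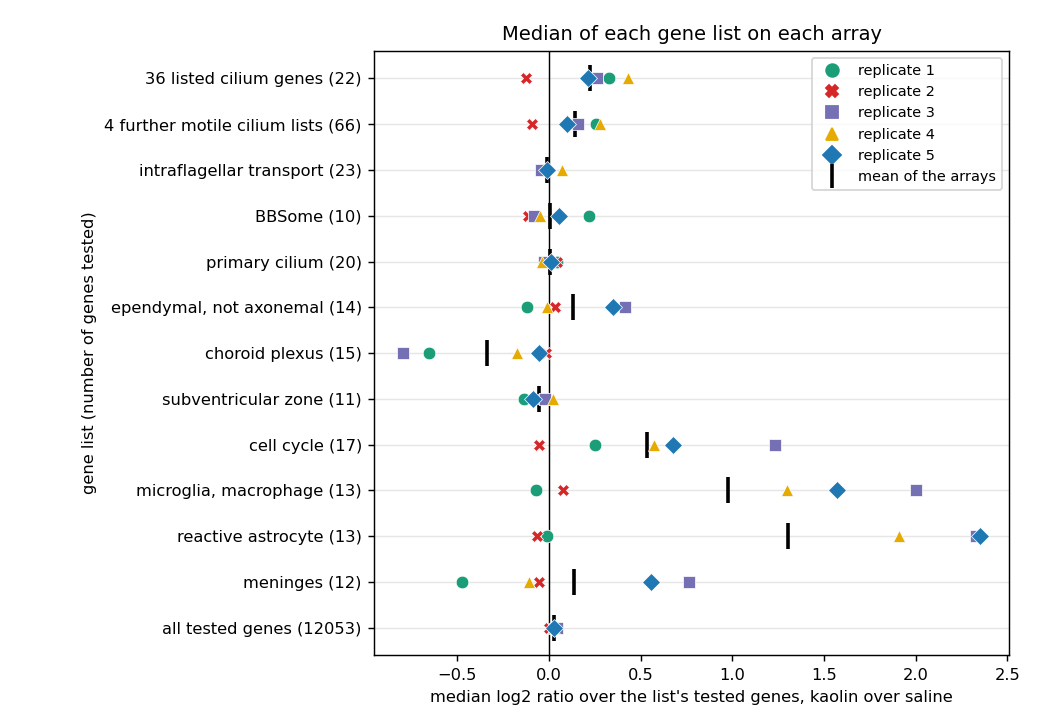
Median log2 ratio of kaolin over saline (x axis) over the tested genes of each list (y axis, number tested in brackets), 1 point per array and a black bar at the mean of the 5 medians. The cilium members and the 4 further motile cilium lists, pooled into 1 row, lie right of 0 except on replicate 2, while reactive astrocyte and microglial markers lie near 0 on replicates 1 and 2 and far right on the other 3 arrays.

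Markers of ependymal cells that are not part of the axoneme had means on both sides of 0. Of 18 genes 14 were tested, 7 with a mean above 0 and 7 below, and the list medians were -0.12, 0.03, 0.41, -0.01 and 0.35 on replicates 1 to 5. Means above 0 made up 50%, against 56.5% of all genes. At an unadjusted p under 0.05, 35.7% were higher and 14.3% lower, against 12.3% and 6.61% of all genes. The range ran from Cdh2 at -0.48 ± 0.54 to Vim at 1.58 ± 1.42 (SD, n = 5), and Vim is also a gene of reactive astrocytes. Summed over the 14 genes, the normalised intensity was 23949 to 65684 in kaolin and 24042 to 27308 in saline samples. On replicate 1 this list was negative where the cilium members had a median of 0.33. Their part in the members' ratios was not tested.

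Choroid plexus markers mostly had means below 0. Of 19 markers 15 were tested, 13 had a mean below 0, and the list medians were -0.66, -0.02, -0.80, -0.18 and -0.06. Means above 0 made up 13.3%, against 56.5% of all genes. At an unadjusted p under 0.05, 46.7% were lower, against 6.61% of all genes, and 0 were higher, against 12.3%. Ttr, the transthyretin gene that defines this epithelium, had log2 ratios of -4.11, -1.89, -4.29, -3.85 and -0.12 and a mean of -2.85 ± 1.8 (SD, n = 5), with an adjusted p of 0.243. The highest mean of the list was that of Slc4a2, at 0.10 ± 0.25 (SD, n = 5). The summed normalised intensity of the list was 9431 to 13088 in kaolin and 11397 to 72296 in saline samples. Among these markers, Clic6 was not well above background on any array in kaolin. The part of this epithelium in the members' ratios was not tested.

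Reactive astrocyte, microglial and cell cycle genes had large ratios on some arrays only. Means above 0 made up 92.3%, 100% and 100% of these lists, against 56.5% of all genes and 77.3% of the members. At an unadjusted p under 0.05, 84.6%, 84.6% and 76.5% were higher in kaolin, against 12.3% of all genes and 27.3% of the members. The reactive astrocyte medians were -0.01, -0.06, 2.33, 1.91 and 2.35, with 12 of 13 means above 0, from Steap4 at -0.02 ± 0.25 to Timp1 at 1.83 ± 1.95 (SD, n = 5). The microglial medians were -0.07, 0.07, 2.0, 1.3 and 1.57, with all 13 means above 0, from P2ry12 at 0.05 ± 0.38 to Tyrobp at 1.53 ± 1.1 (SD, n = 5). On replicate 1 both list medians were near 0, although Tyrobp stood at 0.66. The members' median there was 0.33, from -0.46 for Rsph1 to 1.22 for Ttc8. The cell cycle medians were 0.25, -0.06, 1.23, 0.57 and 0.67, with all 17 means above 0, from Tyms at 0.17 ± 0.23 to Cdk1 at 1.14 ± 1.0 (SD, n = 5). The cell cycle median was highest on replicate 3 and that of the members on replicate 4, and both were lowest on replicate 2. The part of these cells in the members' ratios was not tested. Summed over its genes, the normalised intensity in kaolin and saline samples was 15246 to 89637 and 13858 to 17958 for astrocytes, 51267 to 161917 and 48852 to 53505 for microglia, and 4676 to 10862 and 4495 to 5094 for the cell cycle.

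The remaining markers gave no common direction. Subventricular zone and neuroblast genes had 4 of 11 means above 0 (36.4%, against 56.5% of all genes). Their array medians ran from -0.14 to 0.02, and their means from Dcx at -0.26 ± 0.46 to Nes at 0.46 ± 0.49 (SD, n = 5). At an unadjusted p under 0.05, 18.2% were higher, against 12.3% of all genes, and 0 lower. Meningeal genes had 10 of 12 means above 0 (83.3%, against 56.5% of all genes and 77.3% of the members). Their array medians were -0.48, -0.06, 0.76, -0.11 and 0.55, and their means ran from Pdgfra at -0.09 ± 0.38 to Ogn at 0.34 ± 0.93 (SD, n = 5). At an unadjusted p under 0.05, 0 were higher and 0 lower. Erythroid genes had 3 of 7 means above 0 (42.9%), from Hba-a3 at -1.12 ± 0.53 to Klf1 at 0.31 ± 0.39 (SD, n = 5), and Hba-a3 was negative on all 5 arrays. At an unadjusted p under 0.05, 28.6% were lower, against 6.61% of all genes, and 0 higher. The part of these cell types in the members' ratios was not tested.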

How the data were processed

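Parietal cortex RNA was hybridised to 5 two-colour Agilent arrays, each with a kaolin sample in Cy3 and a saline sample in Cy5. The deposited spot intensities are scanner output, and per the file headers the program was Agilent Feature Extraction 10.1.1.1 and the build rn4. The other deposited columns used were its spot flags. The software's log10 ratios of Cy5 over Cy3, per the file headers, and the authors' log2 value table, whose scaling no source used here gives, served as alternatives. That table ran as log2 of Cy3 over Cy5 when set against the scanner values, with array medians from -0.10 to 0.09.

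Mean and local background intensities were corrected with normexp (offset 50) and normalised within arrays by loess, with levels per dye from Aquantile, in limma 3.58.1 (R 4.3.3). Control spots and 86 to 147 outlier spots per array were left out. Each tested probe had the scanner flag for signal well above background in at least 1 dye on 3 or more arrays, and 1 mean was fitted per probe with lmFit and eBayes over 29118 probes, with Benjamini-Hochberg adjustment at 0.05. The brightest tested probe stood for a gene. The number of arrays limits the precision. The scripts were tested on simulated data. Replicates 1 to 4 lay on 1 slide and replicate 5 on another.

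The members and the gene lists were chosen with earlier results of these data known. All members are named. Of each companion list the 3 genes with the smallest p in each direction are named, and of each marker list those with the highest and lowest mean, with Ttr. Alternatives were other background corrections, normalisations, filters and probe rules, array weights, slide as a covariate, and each array left out. Turning the sign of replicate 2 was added after seeing the data. The lists hold 131 genes in 4 motile cilium lists and 3 lists for cilia in general, beside 8 marker lists. Promoter sequences are RefSeq's for GRCr8.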

Additional observations from a re-analysis of the deposited data

How the results depend on the processing

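The median of the members' means stayed between 0.14 and 0.31 under every alternative for which it was computed, which leaves out array weights. The count of members with a mean above 0 lay between 14 and 21 under the same alternatives, the latter of 26 genes without a filter on dim probes. The count of members past the adjusted threshold was 0 except with array weights (6), with the sign of replicate 2 turned (2) and without single arrays (0 to 4). Probes past the threshold numbered 22 with median centring, all lower in kaolin, 3476 with array weights, 486 with the sign of replicate 2 turned and 0 to 1512 without single arrays. The array whose absence gave the 4 and the 1512 was replicate 2. Members positive on every array numbered 1 without background subtraction, with the software's processed signals, with its log ratios and with the authors' table, 11 with the sign turned, and 2 to 13 without single arrays.

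In 290 of 308 pairs of member and alternative the mean log2 ratio kept its sign, and 14 of the 22 members never changed it. These pairs leave out array weights and the filters on dim probes. Median centring gave -0.075 for Bbs4, -0.0081 for Tekt2 and -0.065 for Dnai1. Without background subtraction Ift88 was 5.4e-05, and with slide as a covariate it was 0.089. Dnah9 was 0.10 with slide as a covariate, 0.042 with the sign of replicate 2 turned and 0.011 as the mean of its probes. Dnah11 was -0.012 with the sign turned and Dnah1 was -0.076 as the mean of its probes. Without single arrays Dnah9 ran from -0.12 to 0.033, Ttc8 from -0.34 to 0.14, Dnai1 from -0.0089 to 0.074 and Ift88 from -0.13 to 0.027. The causes were not tested. Leaving out replicate 2, turning its sign or weighting the arrays changed which members were called, and no dye exchange exists to separate dye from kaolin. The ratio within each array already pairs 1 kaolin with 1 saline sample.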
